A study of Mus musculus with 6 samples.

Results

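De novo synthesis builds the purine ring step by step on phosphoribosyl pyrophosphate (PRPP) up to inosine monophosphate (IMP), from which AMP and GMP are made, and builds the pyrimidine ring before joining it to PRPP to give UMP and then CTP. Salvage recovers free bases and nucleosides, and kinases then raise the monophosphates to the triphosphates that RNA and DNA synthesis use. Dividing cells draw on both routes to copy their DNA and make RNA.

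The genes described here are 47 enzymes of purine, pyrimidine and nucleotide synthesis, chosen by their function, with earlier results of these data known, so that their counts are a description and no independent support. A gene was measured where a probe set of the array was paired with that gene alone, and where a gene had several such probe sets, the one with the highest mean level over the 6 arrays was used. This gave 46 of the 47 genes, out of 19939 tested in all, and Impdh2 was not analysed here. The cells were Melan-Ink4a, a melanocyte line derived from the skin of C57BL/6J mice with the genotype Ink4a-ARF1 null, so that the treated and the untreated cells share the loss of this tumour suppressor locus. The 3 treated samples had 10 nM NRG1-b1, a form of the ERBB3 ligand neuregulin 1, for 21 days, and the 3 others are labelled untreated. The titles and source names set these groups apart, while the treatment text is the same for all 6 samples. Both groups grew in serum with 200 pM cholera toxin and the phorbol ester TPA at 200 nM, to 90% confluence, and no time in culture is given for the untreated cells. As this is 1 line on its own, the values describe this line, and whether replicate arrays stem from independent cultures is not labelled. The p-values therefore reflect the spread among these arrays alone, part or all of which may be technical.

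The platform was the Affymetrix Mouse Gene 1.0 ST array, with 1 array per sample, and all values are the deposited log2 values. Array medians over all probe sets lay between 6.99 and 7.07, and an array has no read depth, so that the number of arrays limits the precision. Across the tested genes, arrays correlated at 0.996 to 0.997 within a group and at 0.981 to 0.986 between groups. Of 10 melanocyte markers, all had levels between 8.68 and 13.9, with 9 lower with NRG1 and Sox10 not called. Markers of other cell types were mostly dim. Group means of 8 fibroblast markers ran from 4.30 to 9.05 with NRG1 and from 4.42 to 8.37 without, and 1 of them, Col1a1, rose (0.86). None of 8 keratinocyte and 6 endothelial markers was called (at an unadjusted p under 0.05 there were 0 and 2, the 2 lower with NRG1), and 1 of 8 leukocyte and macrophage markers, Cd68, rose by 0.23. All 11 measured proliferation markers rose, by 0.91 to 1.76. The part of these markers in the results below was not tested.

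Transcripts of nucleotide synthesis were mostly higher with NRG1, with 36 of the 46 differences above 0, against 8306 of the 19939 tested genes. The 36 include differences near 0, such as that of Guk1 (0.0002). In these bulk samples a change in the share of cells that express a gene and a change in its RNA per cell cannot be told apart. By limma with Benjamini-Hochberg adjustment over all tested genes and a threshold of 0.05, 20 of the 46 genes rose, 4 fell and 22 were not called. Over all tested genes 12.3% rose and 8.56% fell, against 43.5% and 8.70% here. The median difference, NRG1 minus untreated, was 0.17 on the log2 scale for the 46 genes and -0.029 for all tested genes. All 3 NRG1 values lay above all 3 untreated values for 28 of the 46 genes, where this held for 18.6% of all tested genes, and below them for 5, where it held for 18.1%. The mean over the 46 genes was 8.59, 8.51 and 8.54 on the NRG1 arrays and 8.30, 8.36 and 8.28 on the untreated arrays, so that the groups did not overlap. The 46 genes were brighter than the array at large, with 42 of them at or above the median level of all tested genes. Among the 9970 genes at or above that level, 26% rose and 17.8% fell when tested alone, and of the 42 members 23 rose and 5 fell. A quantile normalization over the tested genes changed the split of all genes from 2461 that rose and 1707 that fell to 2257 (11.3%) and 2396 (12%), and that of the 46 members to 14 and 4.

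**Figure D1:**
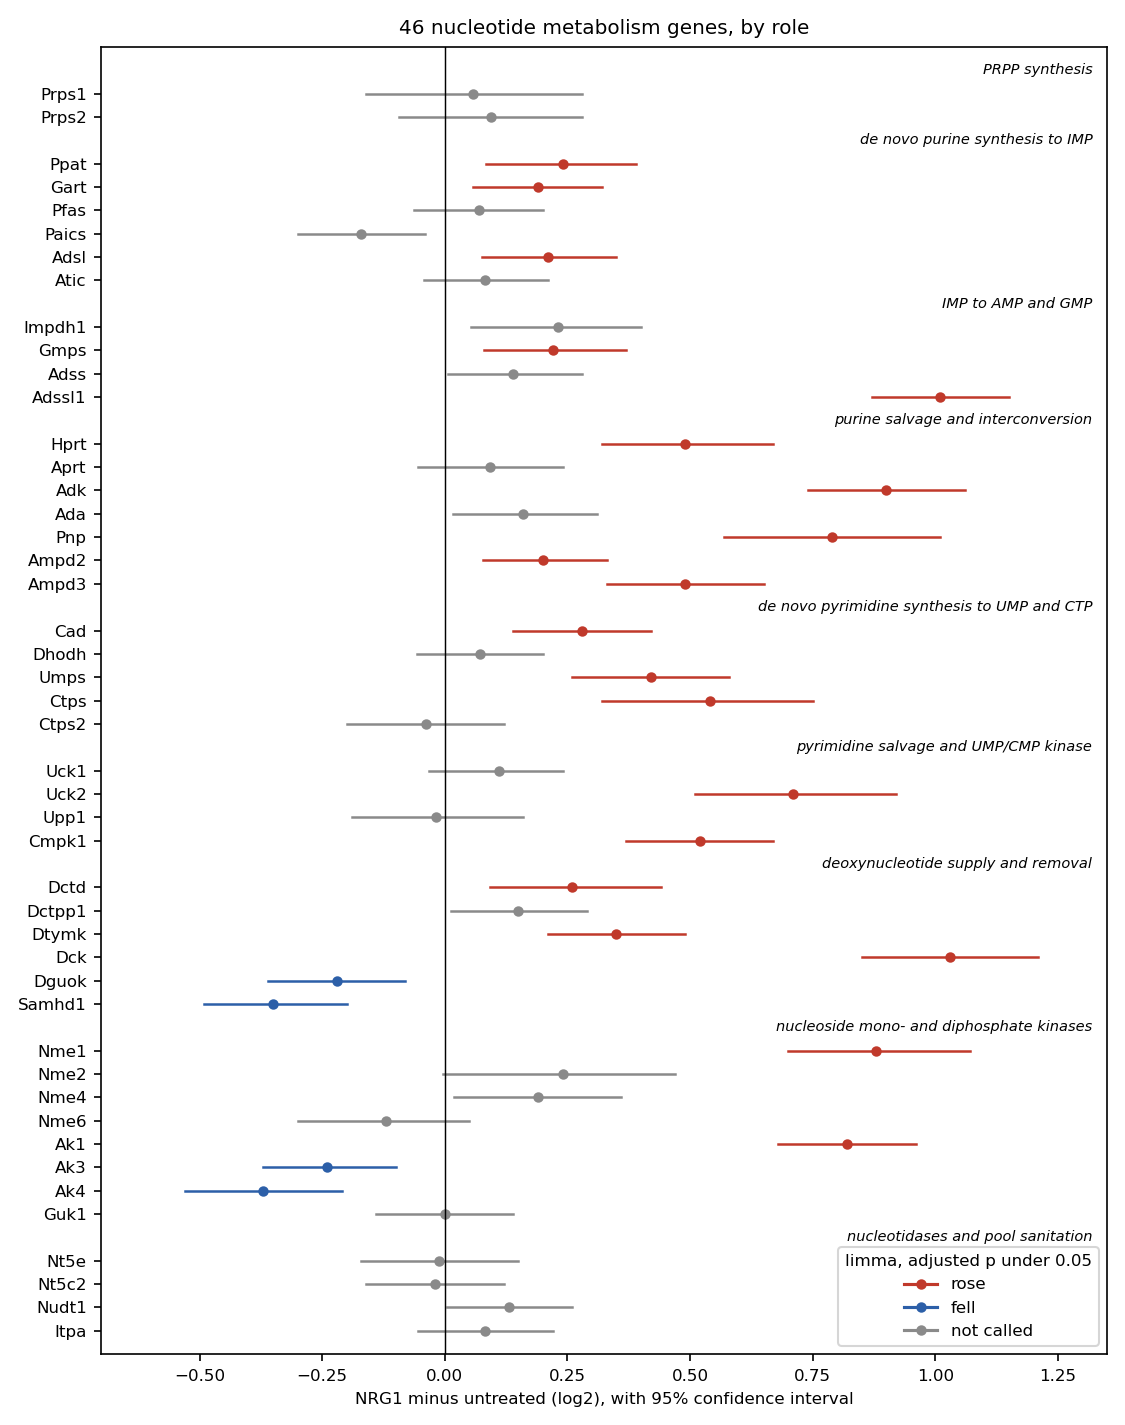
Difference NRG1 minus untreated on the log2 scale for each of the 46 genes, grouped by role, with the 95% confidence interval of the limma fit over 3 arrays per group (points and bars; red rose, blue fell, grey not called). Most points lie to the right of 0, from 1.03 for Dck down to -0.37 for Ak4, and the widest rises are spread over salvage, kinases and 1 enzyme of AMP synthesis.

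Of the steps before and along de novo purine synthesis, those to IMP differed little. PRPP, the activated sugar that de novo synthesis needs, is made by the synthetases encoded by Prps1 and Prps2, neither of which was called (0.058 and 0.095). Of the 6 genes from PRPP to IMP, 3 rose, 0 fell and 3 were not called. Ppat, the amidotransferase gene of the first committed step, was at 8.61, 8.49 and 8.45 with NRG1 and at 8.19, 8.33 and 8.31 without, a difference of 0.24 ± 0.069 (SE; limma, adjusted p = 0.0327). Gart, whose product carries 3 activities of the pathway, rose by 0.19 (limma, adjusted p = 0.0461), and Adsl, which acts in ring synthesis and again in AMP synthesis, by 0.21 (limma, adjusted p = 0.0337). In each of these 3 genes the lowest NRG1 value was above the highest untreated value, but the gaps were small.

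Paics, which encodes the carboxylase and ligase of the middle steps, went the other way without passing the test. It was at 11.74, 11.79 and 11.85 with NRG1 and at 11.96, 11.95 and 12.00 without, a difference of -0.17 ± 0.059 (SE; limma, adjusted p = 0.0674). All its NRG1 values lay below all its untreated values. The call of Paics depended on the setting, with adjusted p from 0.00501 to 0.22 over 16 alternatives, of which 5 called it lower. Ppat and Paics are neighbours on chromosome 5 in the RefSeq gene order. Pfas (0.069) and Atic (0.083), the genes of the amidine-forming step and of the last steps to IMP, were not called.

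The calls of Ppat, Gart and Adsl depended on single arrays. Each ended without NRG1 replicate 1, without untreated replicate 1 and without untreated replicate 3, with adjusted p up to 0.138 for Ppat, 0.157 for Gart and 0.12 for Adsl over the 16 alternatives. All 3 also ended without NRG1 replicate 2, and Gart and Adsl without NRG1 replicate 3.

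The E-box CACGTG, a motif bound by MYC and by MITF among other factors, was searched on both strands in the RefSeq promoters of the GRCm38.p6 build, from 250 bases before to 50 after each gene start. Promoters were found for 45 of the 47 genes. Of these, 8 held the motif, which is 17.8%, against 8.09% of 27025 genes, and genes with several starts had more sequence searched. The 27025 genes were not restricted to measured genes or to a level like that of the members. Shares of members and of all genes are therefore not compared on like genes, for this motif and for those below. The following windows show the motif in capitals, 5′ to 3′ on the strand of the gene, so that the surroundings can be compared between a gene that rose and one that did not.
Paics, chr5:76951087-76951116, plus strand: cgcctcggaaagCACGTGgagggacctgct
Atic, chr1:71557137-71557166, plus strand: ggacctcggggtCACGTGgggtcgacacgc
Impdh2, chr9:108560314-108560343, plus strand: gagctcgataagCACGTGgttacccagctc
Ampd3, chr7:110772514-110772543, plus strand: ccagcagtgggtCACGTGtcagctctgtaa
Dtymk, chr1:93802065-93802094, minus strand: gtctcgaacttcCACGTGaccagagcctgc
Nme1, upstream start, chr11:93968273-93968302, minus strand: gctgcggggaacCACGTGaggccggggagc
Nme1, downstream start, chr11:93968037-93968066, minus strand: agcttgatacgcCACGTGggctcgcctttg
Ak4, chr4:101419477-101419506, plus strand: tcccactctgccCACGTGcggggaccggca
Nt5c2, chr19:46969745-46969774, minus strand: cactttgcttccCACGTGggtactgattaa

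Of the 7 measured genes with an E-box, Ampd3, Dtymk and Nme1 rose, Ak4 fell, and Paics, Atic and Nt5c2 were not called. The motif thus stood both in genes that rose and in genes that were not called. The only fall, that of Ak4, was seen on its brighter probe set (-0.37) and not on its dimmer one (0.11). In Nme1 the motif occurred at both listed starts. The ETS core CCGGAAG was in 10 of the 45 promoters (22.2%, against 9.93% of all genes), of which 4 rose, 1 fell and 5 were not called. The E2F motif TTTCCCGC was in 2 (4.44%, against 1.24%), Prps2 and Ppat, and its other form TTTGGCGC in 0 (against 0.585%). Ppat held TTTCCCGC at 2 places, shown here on the strand of Ppat, where the motif reads in reverse.
Ppat, chr5:76951718-76951747, minus strand: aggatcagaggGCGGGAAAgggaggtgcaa
Ppat, chr5:76951771-76951800, minus strand: gagcagaccgcGCGGGAAAaaagggcagtg
A match describes the letters of these windows and does not show that a factor binds there.

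From IMP the path splits, and here 1 gene stood apart. Adssl1 encodes the adenylosuccinate synthase best known from muscle, which starts AMP synthesis from IMP. It was at 10.06, 10.09 and 10.00 with NRG1 and at 9.01, 9.13 and 8.98 without, a difference of 1.01 ± 0.064 (SE), or 2.01-fold (limma, adjusted p = 1.96e-06). Every NRG1 value was far above the highest untreated value. The other synthase gene, Adss, was at 9.22, 9.14 and 9.17 with NRG1 and at 9.08, 9.06 and 8.97 without, and was not called (0.14, 95% confidence interval 0.0057 to 0.28; limma, adjusted p = 0.14). On the GMP side, Gmps, the GMP synthetase gene, rose by 0.22 (limma, adjusted p = 0.0343), and Impdh1, whose product makes the rate-limiting oxidation towards GMP, was not called (0.23; limma, adjusted p = 0.0664). The 3 NRG1 values of Gmps and of Impdh1 lay above their untreated values. Gmps lost its call when NRG1 replicate 1 or 3 or untreated replicate 1 or 3 was left out (adjusted p up to 0.133 over 16 alternatives). Impdh1 was called in 4 of the 16, with adjusted p from 0.0209 to 0.202.

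In purine salvage and interconversion 5 of 7 genes rose and 0 fell, with a median difference of 0.49. Adk, the adenosine kinase gene, was at 7.91, 7.70 and 7.87 with NRG1 and at 6.97, 6.94 and 6.87 without, a rise of 0.90 ± 0.071 (SE), or 1.86-fold (limma, adjusted p = 1.02e-05). Pnp, which splits inosine and guanosine into base and sugar phosphate, was at 9.0, 9.01 and 9.05 with NRG1 and at 8.07, 8.48 and 8.14 without. That is a rise of 0.79 ± 0.098 (SE), or 1.73-fold (limma, adjusted p = 0.000221). Untreated replicate 2 was the highest of the untreated values of Pnp and still lay below every NRG1 value. Pnp shares sequence with its neighbouring copy Pnp2, and a probe set paired with both was left out, so that its value is uncertain to that extent.

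Hprt, the enzyme that recovers hypoxanthine and guanine, was at 9.84, 9.67 and 9.74 with NRG1 and at 9.31, 9.34 and 9.11 without, a rise of 0.49 (1.41-fold; limma, adjusted p = 0.00114). Its groups did not overlap. Aprt, the matching enzyme for adenine, was not called (0.092, 95% confidence interval -0.054 to 0.24). AMP deaminases return AMP to IMP. Ampd3 was at 9.40, 9.41 and 9.34 with NRG1 and at 8.99, 8.95 and 8.76 without (0.49; limma, adjusted p = 0.000748), and Ampd2 rose by 0.20 (limma, adjusted p = 0.0292). The Ampd2 call ended without any single array except untreated replicate 2, with adjusted p up to 0.123 over 16 alternatives. Ada, the adenosine deaminase gene, was dim at 5.55 and not called (0.16; limma, adjusted p = 0.116).

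**Figure D2:**
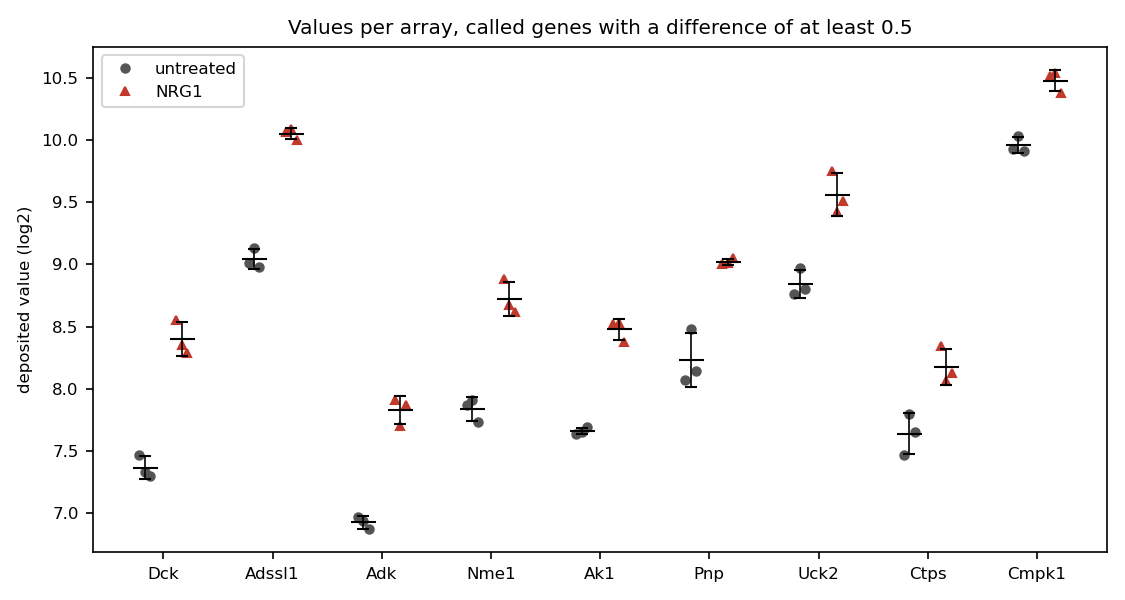
Deposited log2 values on each of the 6 arrays for the 9 called genes that differed by at least 0.5, ordered by the size of the difference (grey circles untreated, red triangles NRG1, bars mean and SD of 3 arrays). In each gene the 3 NRG1 points lie above the 3 untreated points, from the 2.04-fold rise of Dck to the 1.43-fold rise of Cmpk1, and no gene that fell reached this size.

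In de novo pyrimidine synthesis 3 of 5 genes rose and 0 fell. Cad, which encodes the protein of the first 3 steps, was at 8.93, 8.87 and 8.92 with NRG1 and at 8.60, 8.70 and 8.57 without (0.28 ± 0.062, SE; limma, adjusted p = 0.00864). Umps, whose product makes UMP from orotate, was at 8.52, 8.47 and 8.57 with NRG1 and at 8.10, 8.21 and 7.99 without (0.42 ± 0.072; limma, adjusted p = 0.00194). Between them, Dhodh, the mitochondrial dehydrogenase gene, was not called (0.072, 95% confidence interval -0.056 to 0.2), although its values did not overlap. Cad and Umps kept their calls in all 16 alternatives, so that the rises of this route were more stable under them than those of the route to IMP, whose 3 calls each ended in 7 to 9 of the 16.

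CTP synthase turns UTP into CTP. Ctps was at 8.34, 8.06 and 8.13 with NRG1 and at 7.47, 7.80 and 7.65 without, a rise of 0.54 ± 0.096 (SE), or 1.45-fold (limma, adjusted p = 0.0026). Ctps2, which encodes the other synthase, was at 8.88, 8.76 and 8.84 with NRG1 and at 8.82, 8.99 and 8.79 without (-0.038, 95% confidence interval -0.2 to 0.12; limma, adjusted p = 0.767). The Ctps groups were separate while those of Ctps2 were mixed.

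Pyrimidine salvage showed the same split within a pair. Uck2, a uridine-cytidine kinase gene, was at 9.75, 9.42 and 9.51 with NRG1 and at 8.76, 8.97 and 8.80 without, a rise of 0.71 ± 0.094 (SE), or 1.64-fold (limma, adjusted p = 0.000325). Its other probe set gave 0.66 ± 0.087 (SE). Uck1 was at 8.61, 8.60 and 8.52 with NRG1 and at 8.44, 8.54 and 8.43 without, and was not called (0.11, 95% confidence interval -0.033 to 0.24). Cmpk1, the UMP/CMP kinase gene, was at 10.51, 10.54 and 10.38 with NRG1 and at 9.93, 10.03 and 9.91 without, a rise of 0.52 ± 0.068 (SE), or 1.43-fold (limma, adjusted p = 0.000312). Upp1, the uridine phosphorylase gene, was dim at 5.72 and not called (-0.017).

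Of 6 genes that supply or remove deoxynucleotides, 3 rose, 2 fell and 1 was not called, and both directions occurred among the supply kinases. Dck, the cytosolic kinase gene for deoxycytidine and purine deoxynucleosides, had the widest difference of the 46, at 8.55, 8.35 and 8.29 with NRG1 and 7.47, 7.33 and 7.30 without. It rose by 1.03 ± 0.081 (SE), or 2.04-fold (limma, adjusted p = 9.25e-06). Dguok, which encodes the mitochondrial kinase for purine deoxynucleosides, was at 8.35, 8.30 and 8.32 with NRG1 and at 8.54, 8.62 and 8.47 without, and fell by 0.22 (limma, adjusted p = 0.0295). The Dguok call ended without any single array except untreated replicate 3. It also ended after median centring, when all probe sets were tested and with the replicate number as a block (limma, adjusted p up to 0.0925 over 16 alternatives).

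Samhd1, whose product breaks down deoxynucleoside triphosphates, was at 8.13, 8.20 and 8.15 with NRG1 and at 8.43, 8.60 and 8.48 without. It fell by 0.35 ± 0.066 (SE; limma, adjusted p = 0.00364), and its groups were separate. Dtymk, the thymidylate kinase gene, was at 8.42, 8.37 and 8.47 with NRG1 and at 8.0, 8.14 and 8.08 without (0.35 ± 0.064, SE; limma, adjusted p = 0.0029). Dctd, the dCMP deaminase gene, rose by 0.26 (limma, adjusted p = 0.0347), but its call ended without any single array except NRG1 replicate 2 (adjusted p up to 0.133). Dctpp1, which removes abnormal cytosine nucleotides, was not called (0.15; limma, adjusted p = 0.121).

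Among 8 kinases of nucleoside mono- and diphosphates, 2 rose, 2 fell and 4 were not called. Nme1, a nucleoside diphosphate kinase gene, was at 8.88, 8.67 and 8.62 with NRG1 and at 7.87, 7.91 and 7.73 without, a rise of 0.88 ± 0.082 (SE), or 1.84-fold (limma, adjusted p = 3.03e-05). Nme2, its neighbour on chromosome 11, was at 9.09, 8.87 and 8.80 with NRG1 and at 8.46, 8.81 and 8.79 without (0.24; limma, adjusted p = 0.161). The Nme1 groups were separate and the Nme2 groups overlapped. Both genes encode closely similar proteins, so that probes may not tell their transcripts fully apart. Nme4 (0.19) and Nme6 (-0.12), a mitochondrial and a further family member, were not called.

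The adenylate kinases differed in direction. Ak1, the cytosolic form, was at 8.52, 8.53 and 8.38 with NRG1 and at 7.64, 7.65 and 7.69 without, a rise of 0.82 ± 0.063 (SE), or 1.76-fold (limma, adjusted p = 8.60e-06). Ak3, a mitochondrial form that uses GTP, was at 10.85, 10.82 and 10.80 with NRG1 and at 11.07, 11.13 and 10.99 without, and fell by 0.24 (limma, adjusted p = 0.0203). Its call ended without NRG1 replicate 2 or 3 or untreated replicate 1, and after median centring (adjusted p up to 0.0747).

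Ak4, another mitochondrial member, was at 8.46, 8.68 and 8.59 with NRG1 and at 8.88, 8.99 and 8.95 without on its brighter probe set, and fell by 0.37 (limma, adjusted p = 0.0043). The dimmer Ak4 probe set gave 0.11 ± 0.081 (SE), and the mean of both gave -0.13 (limma, adjusted p = 0.204), so the probe sets disagreed in direction and the fall of Ak4 rests on the brighter of them. Guk1, the guanylate kinase gene, was level with overlapping groups (0.0002, 95% confidence interval -0.14 to 0.14).

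None of the 4 genes of nucleotidases and pool sanitation was called by limma, and at an unadjusted p under 0.05 there was 1, Nudt1, which removes oxidised nucleotides (0.13; adjusted p = 0.142). Nt5e, the surface enzyme CD73 that makes adenosine from AMP (-0.011), the cytosolic nucleotidase gene Nt5c2 (-0.019) and Itpa, which removes ITP (0.082), had overlapping groups. Their 95% confidence intervals together ran from -0.17 to 0.22.

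Enzymes of like function were then compared pair by pair, over the 8 measured of 9 pairs, as the change of one gene minus the change of the other. The gap was 1.25 on the log2 scale between Dck and Dguok, 0.87 between Adssl1 and Adss, 0.65 between Nme1 and Nme2, 0.61 between Uck2 and Uck1, 0.58 between Ctps and Ctps2 and 0.28 between Ampd3 and Ampd2. In these 6 pairs the array-by-array difference between both genes did not overlap between the groups. Each gave p = 0.1 in an exact 2-sided permutation test, the smallest that 3 arrays against 3 allow, and p = 0.133 after adjustment over the 8 pairs, so none could pass the threshold. How often the groups are separate in this way for other pairs of genes was not computed, so the count of 6 has no share beside it. The gaps were 0.13 for Ak3 and Ak4 (exact permutation p = 0.2) and 0.037 for Prps2 and Prps1 (exact permutation p = 0.9).

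**Figure D3:**
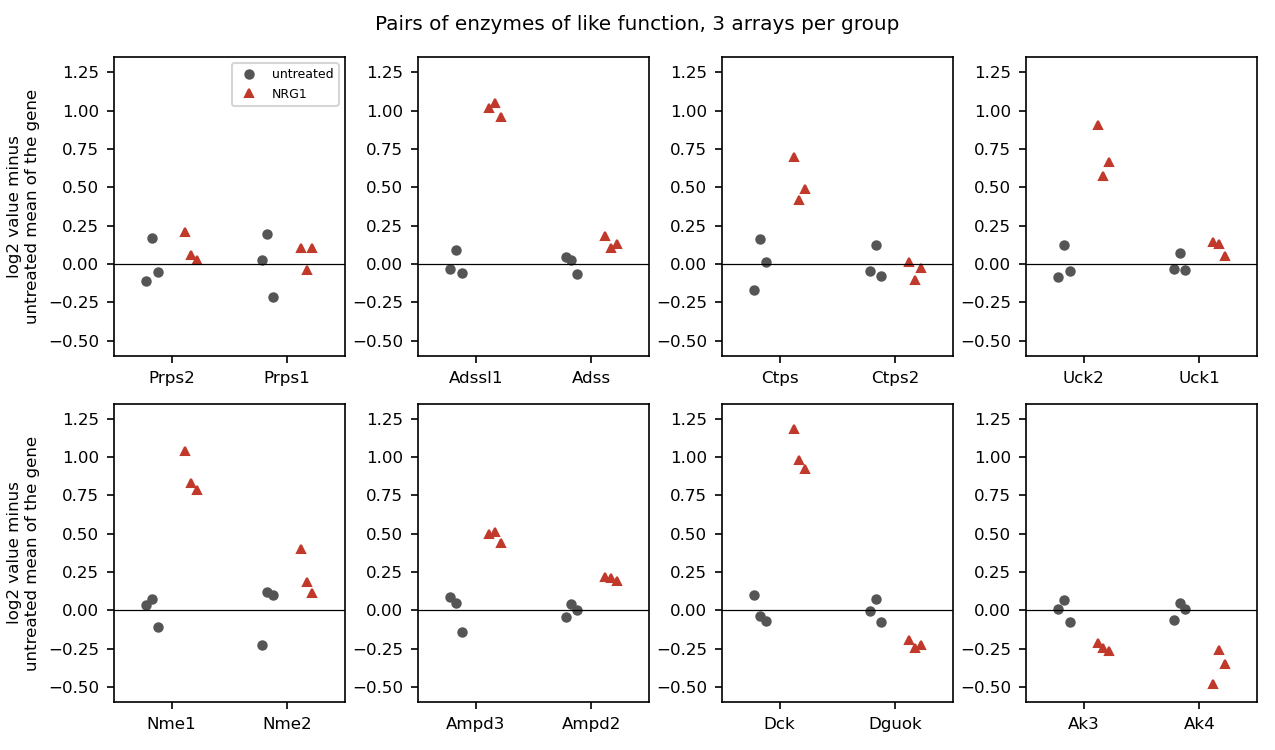
Log2 value on each array minus the untreated mean of that gene, for 8 pairs of enzymes of like function (grey circles untreated, red triangles NRG1, 3 arrays each; line at 0). One gene of the pair stands well above its untreated values in Adssl1, Ctps, Uck2, Nme1 and Dck, while the other gene differs less, at 0.14 for Adss, -0.038 for Ctps2, 0.11 for Uck1, 0.24 for Nme2 and -0.22 for Dguok.

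Of the 20 rises, 14 kept their call in all 16 alternatives other than a test against a minimum change. These were Adssl1, Hprt, Adk, Pnp, Ampd3, Cad, Umps, Ctps, Uck2, Cmpk1, Dtymk, Dck, Nme1 and Ak1, and none of them belongs to the route from PRPP to IMP. The other 6 rises, those of Ppat, Gart, Adsl, Gmps, Ampd2 and Dctd, were all of 0.26 or less. Of the 4 falls, that of Samhd1 kept its call in the same 16. When limma treat required a change of at least 1.2-fold, 8 of the 46 rose and 0 fell, where 4.43% of all tested genes rose. The 8 were Dck, Adssl1, Adk, Nme1, Ak1, Pnp, Uck2 and Cmpk1.

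**Figure D4:**
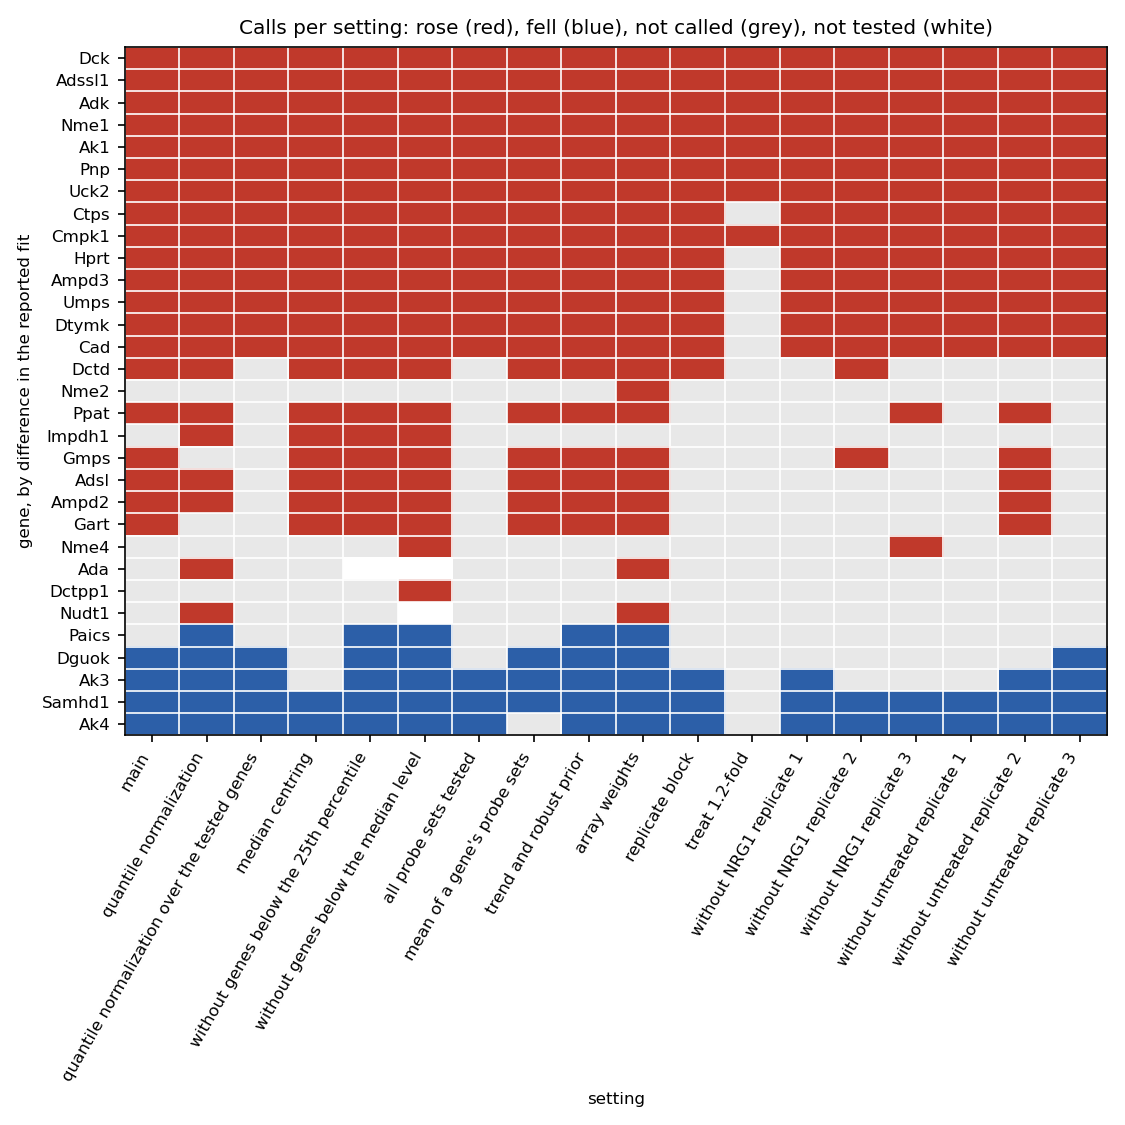
Calls of the members that were called in at least 1 setting (rows, by the difference in the reported fit) under the reported fit, labelled main, and 17 alternatives (columns; red rose, blue fell, grey not called, white left out by a filter on level). The upper 14 rows, from Dck to Cad, are red in every column other than treat 1.2-fold, and 8 of them are red there too. The rows of Dctd, Ppat, Gmps, Adsl, Ampd2 and Gart change between columns.

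Other genes around these routes were read from lists that hold none of the 46. Of 15 measured genes of folate one-carbon supply, which feeds carbon into purines and thymidylate, 5 rose and 1 fell. That is 33.3% and 6.67%, against 12.3% and 8.56% of all tested genes. Aldh1l2, a mitochondrial formyltetrahydrofolate dehydrogenase gene, rose by 2.42 ± 0.064 (SE; limma, adjusted p = 6.82e-09), Mthfd2 by 0.74, Tyms, the thymidylate synthase gene, by 0.72 and Shmt2 by 0.60. The fifth rise was Mthfd2l (0.44), and the fall was Ggh (-0.40), which encodes a hydrolase of folate polyglutamates. The other 9 genes were not called, among them Mthfd1 (-0.16, with adjusted p = 0.118 by limma), whose NRG1 values all lay below its untreated values. Of the 15 differences, 11 were above 0 and 4 below. In the core of deoxynucleotide synthesis 3 of 7 genes rose (42.9%) and 1 fell (14.3%). Rrm2 and Rrm1, subunit genes of ribonucleotide reductase, rose by 1.40 and 0.75. Rrm2b, a further subunit gene of that enzyme, was not called (-0.069, with adjusted p = 0.59 by limma). Tk1, the cytosolic thymidine kinase gene, rose by 0.64, while Tk2, the mitochondrial one, fell by 0.34 (limma, adjusted p = 0.00214). In both the Tk and the Dck and Dguok pairs the gene of the cytosolic kinase rose and that of the mitochondrial kinase fell. The Tk genes were not among the 9 pairs fixed for comparison, and Dguok kept its call in only 8 of the 16 alternatives.

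Breakdown and transport genes rose in shares near that of all tested genes (11.8% and 11.1%, against 12.3%). These lists were dimmer than the members, with 12 of 17 and 11 of 18 genes under the median level, against 4 of 46. Their shares and those of the members are therefore not compared at a like level. Of 17 genes of purine and pyrimidine breakdown 2 rose and 0 fell, namely Lacc1 by 1.33 and Mtap by 0.20. Slc29a1, which encodes the equilibrative nucleoside transporter ENT1, rose by 0.99 ± 0.082 (SE; limma, adjusted p = 1.30e-05), and was 1 of 2 rises among 18 genes of nucleoside transport and extracellular nucleotide turnover, with 0 falls; the other was Entpd5 (0.27). Among 13 other nucleotide kinases and PRPP-associated genes 1 rose, Adal (0.29), and 4 fell, Cmpk2 (-0.40), Nme3 (-0.38), Prpsap2 (-0.33) and Ak5 (-0.28). That is 7.69% and 30.8%, against 12.3% and 8.56% of all tested genes. This list too was dimmer than the members, with 6 of its 13 genes under the median level.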

How the data were processed

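RNA of 6 samples of Melan-Ink4a cells was measured, 3 per group, with groups taken from the sample labels. The deposited values are on a log2 scale and were made by the authors with GCOS and RMA, per the submitters' processing notes. RMA corrects background, normalizes and summarizes probes, and its version and settings were not given in those notes. Of 35557 probe sets, 21789 were paired with 1 gene, 1621 with several and 12147 with none, and the brightest probe set of each gene was kept. Groups were compared by the moderated test of limma (version 3.58.1, under R 4.3.3; 2-sided, Benjamini-Hochberg over 19939 genes, threshold 0.05), which was checked on simulated data. Confidence intervals are 95% intervals of that fit. The members and all lists were chosen with earlier results of these data known. Values per array were to be given for called members that differed by at least 0.5 and for enzyme pairs that differed in call. Other members given per array, and genes of the other lists that differed by less than 0.5, were picked after their values were seen. Alternatives covered normalization, filters, probe set choice, variance models, a replicate block, a minimum change and leaving out each array. Quantile normalization over the tested genes was chosen after seeing the data. Promoter sequences are those of RefSeq, build GRCm38.p6.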

Additional observations from a re-analysis of the deposited data

How the results depend on the processing

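The median difference of the members stayed between 0.14 and 0.20 in the alternatives that recomputed it. The number of members that rose was 20 as reported, 14 to 19 when 1 array was left out, and between 14 and 23 in the other alternatives except for the test against a 1.2-fold change, which gave 8. The number that fell was 4 as reported, 2 to 4 when 1 array was left out, 2 after median centring, 0 against a 1.2-fold change and 3 to 5 in the other alternatives. The shares over all genes tested moved with the setting too. When 1 array was left out, 9.56% to 13% of them rose and 5.78% to 9.03% fell. Against a 1.2-fold change 4.43% rose and 1.72% fell, and in the other alternatives 9.78% to 26% rose and 5.71% to 17.8% fell. With the replicate block, 15 members rose and 3 fell, all of them among the reported calls, against 11% and 7.07% of all tested genes. Same-numbered arrays did not deviate together (correlations -0.095, -0.164 and 0.0739 over 19939 genes). Pairs of arrays with different numbers ran from -0.196 to 0.247. With 3 arrays per group this cannot tell whether same-numbered arrays shared a culture or a batch, and no label says so. A change of sign occurred only in 6 members that were not called in any setting. Upp1 was 0.036 after quantile normalization, 0.025 with it over the tested genes and 0.0075 after median centring, and ran from -0.074 to 0.056 when 1 array was left out. Nt5e was 0.023, 0.0035 and 0.014 in the same order and 0.01 with array weights, and ran from -0.054 to 0.047. Guk1 was -0.048 with quantile normalization over the tested genes and -0.019 with array weights, and ran from -0.027 to 0.041. Nt5c2 was 0.0054 after median centring and 0.018 with array weights, and ran from -0.047 to 0.013. Ctps2 ran from -0.075 to 0.023 and Prps1 from -0.05 to 0.15 when 1 array was left out. The causes were not tested. With 3 arrays per group the median standard error of a difference was 0.0708, so that changes of 0.2 or less were at the limit of what could be called.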
